A study of Mus musculus with 8 samples.

Results

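MHC class I presentation was followed through 10 genes in single-cell RNA sequencing counts of thymic epithelial cells (TEC), the stromal cells that support T cell development. The genes were chosen by name, without a cut on their values but with earlier results of these data known. They were the heavy chains H2-K1 and H2-D1, the light chain B2m and the peptide transporter subunits Tap1 and Tap2. The others were the loading factors Tapbp, Calr and Pdia3, the peptide-trimming enzyme Erap1 and the transcriptional activator Nlrc5. All 10 were among the 27514 genes that every library listed. The cells came from wild-type mice of the strain given as C57 B6 (CD45.2), without a transgene or treatment, and were sorted from thymus as DAPI-, EpCAM+ and CD45-. The groups were total TEC at E13.5 (1 library), cortical TEC (cTEC, Ly51+ UEA-1-) at E15.5, E17.5 and in newborns aged 0 to 2 days (NB; 1 library each), adult cTEC (2 libraries) and adult medullary TEC (mTEC, Ly51- UEA-1+; 2 libraries), the adults being 4 to 6 weeks old and of either sex. The question the design put to these genes was how their transcripts differed with age along the cortical line, and between the cortical and the medullary lineage in the adult.

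MHC class I molecules display peptides from inside the cell to CD8 T cells. The heavy chain folds with beta-2-microglobulin in the endoplasmic reticulum, where the TAP transporter delivers peptides from the cytosol and where tapasin, calreticulin and ERp57 hold the empty molecule until a peptide binds. In the thymus, cTEC present such peptides for the positive selection of CD8 T cells, and mTEC present self-peptides for tolerance. NLRC5 is known as the activator of class I genes, and interferons are known to raise many genes of this pathway.

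The libraries were captured in 2 data sets. Data set 1 held E13.5, E15.5, NB, adult cTEC replicate 1 and adult mTEC replicate 1, and data set 2 held E17.5 and replicate 2 of both adult groups. Between 493 and 8315 cells per library were kept, with 2158499 to 89522306 unique molecular identifiers (UMIs) in all and a median of 3955 to 11391 UMIs per cell, so that the adult cTEC libraries were the smallest. Levels are given as CPM, the UMIs of a gene per 1000000 UMIs of the kept cells, with exact 95% Poisson intervals, which cover counting error only. A library below the adult had no replicate, and nothing in the labels says how many animals a library held. The fits left 3 residual degrees of freedom for the trend and 1 for the lineages, so their p-values lean on a variance shared over genes. For the trend the residual is the departure from a straight line over stages, and no p-value measures a spread between animals. Embryonic thymi were dissociated with trypsin and not enriched, whereas newborn and adult thymi were digested with Liberase and enriched on Percoll, and this step and age cannot be told apart between the fetal and the later libraries. All 6 epithelial markers examined (Epcam, Krt8, Krt18, Cdh1, Foxn1 and Pax1) had UMIs in each library. The summed level of 8 cortical markers was 1602 CPM in E13.5 TEC, 6037 to 10571 CPM in the cTEC libraries and 300 to 385 CPM in adult mTEC. Adult cTEC replicate 1 stood apart in medullary markers, with 6108 CPM over the list Ccl21a, Krt5, Krt14 and Itga6, against 1398 CPM in adult cTEC replicate 2 and 206 to 399 CPM in the E15.5, E17.5 and NB cTEC libraries. At most 61 cell barcodes were shared by a pair of libraries, and no pair shared more than 1.17% of the barcodes of the smaller one.

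The genes lie on 4 chromosomes of the GRCm38 build (GENCODE M21 annotation). H2-K1 (chr17:33996017-34000347), Tapbp (chr17:33915899-33929292), Tap1 (chr17:34187553-34197225), Tap2 (chr17:34203527-34216321) and H2-D1 (chr17:35262730-35267499) lie in the MHC region of chromosome 17, B2m (chr2:122147686-122153083) and Pdia3 (chr2:121413775-121438687) on chromosome 2, Calr (chr8:84841850-84846934) and Nlrc5 (chr8:94434356-94527272) on chromosome 8, and Erap1 (chr13:74639568-74693201) on chromosome 13. Tap1 overlaps Psmb9 on the opposite strand, and B2m, Erap1 and Pdia3 overlap Patl2, Cast and Catsper2 in the same way, and Tap2 and Nlrc5 overlap long non-coding genes on the opposite strand, so that their counts are separate only as far as the counting used strand. Tapbp overlaps the protein-coding Zbtb22 and Nlrc5 the microRNA gene Mir7072, each on its own strand, which strand would not separate. H2-K1, H2-D1 and the other H2 heavy chain genes are near-copies of each other, and the division of reads between them is uncertain. Levels are therefore compared between libraries and not between genes.

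The start-site regions of H2-K1, H2-D1, B2m and Calr are shown because the first 3 of these moved together with age and Calr did not. Each run gives the 250 bases before the RefSeq start (GRCm38.p6), 5′ to 3′ on the strand of the gene. Capitals mark GGGNNTTCC (NF-kB type) and GAANNGAAA (interferon regulatory factor type) in H2-K1 and H2-D1, GAAANNGAA (interferon regulatory factor type) in B2m, and the ER stress element (ERSE: CCAAT, 9 bases, CCACG) in Calr, searched on both strands. GAANNGAAA and the ERSE are read on the opposite strand here, so that the first appears as TTTCACTTC.
H2-K1 (chr17:34000348-34000597, minus strand): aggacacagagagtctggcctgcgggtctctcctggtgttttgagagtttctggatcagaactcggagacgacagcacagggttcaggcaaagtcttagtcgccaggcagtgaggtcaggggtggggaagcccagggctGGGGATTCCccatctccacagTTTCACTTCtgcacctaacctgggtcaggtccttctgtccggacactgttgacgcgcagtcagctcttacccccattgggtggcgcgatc
H2-D1 (chr17:35262844-35263093, plus strand): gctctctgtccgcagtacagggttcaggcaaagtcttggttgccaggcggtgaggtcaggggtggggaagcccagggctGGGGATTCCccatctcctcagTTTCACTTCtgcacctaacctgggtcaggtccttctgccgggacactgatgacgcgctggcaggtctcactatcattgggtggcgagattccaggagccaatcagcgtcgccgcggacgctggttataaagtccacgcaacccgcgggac
B2m (chr2:122147437-122147686, plus strand): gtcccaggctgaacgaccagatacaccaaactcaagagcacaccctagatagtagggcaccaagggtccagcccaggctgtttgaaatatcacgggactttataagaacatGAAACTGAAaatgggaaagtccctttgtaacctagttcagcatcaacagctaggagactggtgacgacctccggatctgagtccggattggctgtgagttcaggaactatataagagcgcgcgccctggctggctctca
Calr (chr8:84846932-84847181, minus strand): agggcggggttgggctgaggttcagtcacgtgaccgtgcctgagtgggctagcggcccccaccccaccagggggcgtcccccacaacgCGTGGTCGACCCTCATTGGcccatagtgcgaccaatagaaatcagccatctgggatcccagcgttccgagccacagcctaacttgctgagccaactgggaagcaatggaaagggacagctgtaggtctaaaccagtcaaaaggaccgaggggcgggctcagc
Windows of 250 bases before to 50 after the start were held for 8 of the 10 genes. GGGNNTTCC was found in H2-K1 and H2-D1 and in 5.82% of all 32851 windows. GAAANNGAA was found in B2m and Erap1 and in 8.56% of all windows. GAANNGAAA, a spacing that was added after the windows had been read, was found in H2-K1 and H2-D1 and in 7.52% of all windows. The ERSE, a motif known from chaperone genes, was found in Calr and in 0.119% of all windows. CCAAT was found in 7 of the 8 genes and in 37.4% of all windows, and TGACG in 5 of the 8 genes and in 20.8% of all windows. A match is a run of letters and not a bound site.

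Both heavy chains and the light chain rose with age along the cortical line. H2-K1, a classical class I heavy chain, was at 49.1 CPM (45.6 to 52.9) in E13.5 TEC, 235 CPM in E15.5, 364 CPM in E17.5, 1025 CPM in NB, and 2425 and 1694 CPM in the 2 adult cTEC libraries. H2-D1, the other classical heavy chain, was at 46.1 CPM (42.6 to 49.7) in E13.5 TEC, then 229, 292 and 1155 CPM in E15.5, E17.5 and NB, and 2941 and 1692 CPM in adult cTEC. B2m, the light chain shared by all class I molecules, was at 132 CPM (127 to 138) in E13.5 TEC, then 566, 960 and 2066 CPM, and 5786 and 4168 CPM in adult cTEC. For all 3 genes each stage lay above the one before it, and both adult cTEC libraries lay above every younger library.

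**Figure D1:**
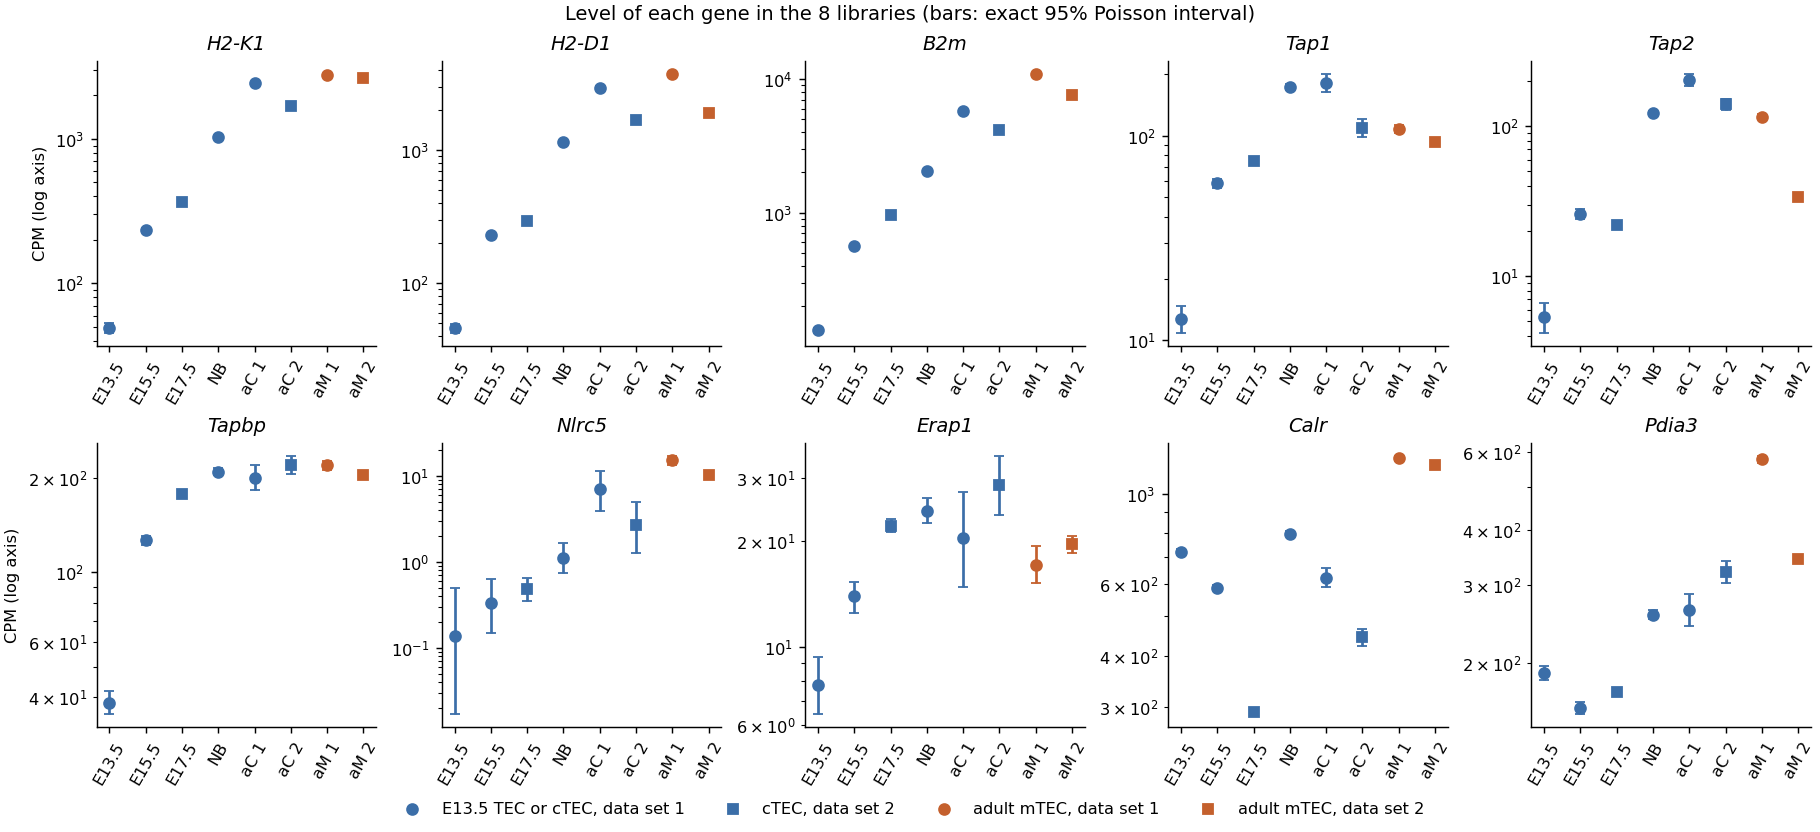
Level of each of the 10 genes in CPM (log axis, a separate range for each panel) in the 8 libraries, with exact 95% Poisson intervals as bars; aC and aM stand for adult cTEC and adult mTEC, circles for data set 1 and squares for data set 2. H2-K1, H2-D1 and B2m climbed at every stage to both adult cTEC libraries, whereas Calr lay between 291 and 797 CPM in the 6 libraries of the cortical line, with its lowest value at E17.5.

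The slope on stage rank (E13.5 to adult, ranks 1 to 5) over the 6 libraries, with data set as a term, was tested with the quasi-likelihood test of edgeR and Benjamini-Hochberg adjustment over all 14449 genes tested. The log2 slope per stage was 1.27 ± 0.14 (SE, n = 6) for H2-K1 (adjusted p = 0.00734), 1.38 ± 0.13 for H2-D1 (adjusted p = 0.00586) and 1.22 ± 0.13 for B2m (adjusted p = 0.00717). Of the 10 genes, 5 rose and 0 fell, the other 2 that rose being Tap2 and Nlrc5. Over all genes, 7.63% passed the test, with 4.75% rising and 2.88% falling. The median slope was 0.99 for the 10 genes and -0.001 for all genes tested. This count rested on adult cTEC replicate 1: without it 0 of the 10 genes and 16 genes in all passed (edgeR, adjusted p from 0.0773 to 0.0946 for H2-K1, H2-D1, B2m and Tap2), although their slopes of 1.30, 1.41, 1.19 and 1.40 were close to those with it. Without adult cTEC replicate 2, 4 of the 10 genes and 463 genes in all passed, in a fit where E17.5 was the only library of its data set and so was taken up by the data set term. The E13.5 sort took total TEC, so that its gate and its age cannot be told apart, and without that library the same number of the 10 genes passed (5).

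Within a data set the same order was seen. In data set 1, H2-K1 was 4.79-fold (95% interval 4.43 to 5.18) higher in E15.5 than in E13.5, 4.36-fold higher in NB than in E15.5, and 2.37-fold higher in adult cTEC replicate 1 than in NB. H2-D1 was 63.8-fold (58.9 to 69.3) higher in adult cTEC replicate 1 than in E13.5, and B2m 43.7-fold (41.6 to 45.9) higher. In data set 2, adult cTEC replicate 2 exceeded E17.5 by 4.65-fold for H2-K1, 5.79-fold for H2-D1 and 4.34-fold for B2m. These intervals cover counting error in 2 libraries and are no test between ages. Nlrc5 had under 10 UMIs at E13.5 and E15.5 and is left out of the next 2 counts, which are over genes with 10 or more UMIs in both libraries. From E13.5 to E15.5, 6 of the 9 other genes were at least 2-fold higher, as were 7.39% of 12676 genes, and from E15.5 to NB 5 of the 9 were, against 7.74% of 12907 genes. From NB to adult cTEC replicate 1, 4 of the 10 (H2-K1, H2-D1, B2m and Nlrc5) were at least 2-fold higher, against 15.4% of 10364 genes.

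Markers of other cells also differed along this series. Thymocyte markers summed to 6.26 to 15.4 CPM in the fetal and NB libraries, 15.8 CPM in adult cTEC replicate 2 and 50 CPM in replicate 1. Of 14 such markers, 6 had UMIs in E13.5 TEC, where Cd3d, Cd3e, Cd3g, Cd8a, Cd2, Dntt, Rag1 and Rag2 were at 0, and 14 had UMIs in E17.5, NB and adult cTEC replicate 1. Without the cells that held any thymocyte UMI the slopes were 1.27 for H2-K1, 1.38 for H2-D1 and 1.22 for B2m, and the same number of genes passed (5). Myeloid markers summed to 1.27 to 13.7 CPM before adulthood and to 404 and 35.5 CPM in adult cTEC replicates 1 and 2, where 9 and 8 of 10 markers had UMIs and Adgre1 was at 0 in both. Mesenchymal markers summed to 8.33 to 33.8 CPM before adulthood and to 510 and 340 CPM in adult cTEC, with UMIs of 6 of 8 markers in each. The part of myeloid, mesenchymal and medullary transcripts in the adult values was not tested. In an alternative added after these sums were seen, only cells with a UMI of the cortical genes Psmb11 or Prss16 were counted, and 6 of the 10 genes and 5.49% of all genes tested rose, with slopes of 1.23 for H2-K1, 1.33 for H2-D1 and 1.18 for B2m. The medullary list still summed to 5252 CPM and the myeloid list to 449 CPM in those cells of adult cTEC replicate 1, and to 895 and 15.4 CPM in those of replicate 2.

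The transporter subunits differed at the end of the series, where Tap1 levelled off between NB and the adult and Tap2 did not. Tap1, one subunit of the TAP peptide transporter, was at 12.7 CPM (10.9 to 14.7) in E13.5, 58.5 in E15.5, 75.1 in E17.5 and 173 CPM (168 to 179) in NB, and at 181 CPM (164 to 200) and 109 CPM (98.6 to 120) in adult cTEC. NB thus lay inside the range of the adult libraries. Its slope was 0.76 ± 0.21 (SE, n = 6) and did not pass the test (edgeR, adjusted p = 0.0748), but it passed with DESeq2 (adjusted p = 0.000616) and in the cells with a cortical UMI (edgeR, adjusted p = 0.0481). Without E13.5 the slope was 0.45.

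Tap2, the other subunit, was at 5.32 CPM (4.20 to 6.65) in E13.5, 25.9 in E15.5, 22.1 in E17.5 and 122 CPM in NB, and at 203 and 140 CPM in adult cTEC. E15.5 and E17.5 were at like levels, and both adult libraries lay above NB. Its slope of 1.26 ± 0.14 passed the test (edgeR, adjusted p = 0.00819). In the within-data-set steps, Tap1 changed 1.05-fold (0.940 to 1.16) from NB to adult cTEC replicate 1, whereas Tap2 was 1.67-fold (1.5 to 1.84) higher. From E17.5 to adult cTEC replicate 2, Tap1 was 1.45-fold and Tap2 6.34-fold higher.

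Tapbp, which encodes tapasin, the bridge between TAP and the class I molecule, stood at more than 50% of its adult level from E15.5. It was at 38.3 CPM (35.2 to 41.7) in E13.5, 127 in E15.5, 178 in E17.5 and 210 in NB, and at 201 and 221 CPM in adult cTEC. The slope of 0.44 ± 0.17 did not pass the test (edgeR, adjusted p = 0.150), but it passed with DESeq2 (adjusted p = 0.0280). Erap1, the aminopeptidase that trims peptides in the endoplasmic reticulum, had a like course at 7.80, 13.9, 22 and 24.3 CPM, with 20.4 CPM (14.8 to 27.4) and 28.8 CPM (23.7 to 34.8) in adult cTEC. Its slope was 0.33 ± 0.12 (edgeR, adjusted p = 0.129), and it too passed with DESeq2 (adjusted p = 0.0332). Both slopes rested in part on the first library, since without E13.5 they were 0.19 for Tapbp and 0.19 for Erap1.

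Calr and Pdia3, general chaperones of glycoprotein folding that also serve class I loading, were well represented from the start. Calr was at 719 CPM in E13.5, 588 in E15.5, 291 in E17.5 and 797 in NB, and at 622 and 444 CPM in adult cTEC, so that the lowest library was fetal and the highest was NB. Pdia3 (ERp57) was at 190, 158, 172 and 257 CPM from E13.5 to NB and at 264 and 321 CPM in adult cTEC, so that its 3 fetal libraries lay below both adult ones. The slopes were 0.05 (edgeR, adjusted p = 0.758) for Calr and 0.21 (edgeR, adjusted p = 0.185) for Pdia3.

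Nlrc5 rested on few molecules. It had 2 UMIs in E13.5 (0.138 CPM, 0.0167 to 0.499), 9 in E15.5 (0.327 CPM), 43 in E17.5 (0.480 CPM), 26 in NB (1.12 CPM), and 15 and 10 UMIs in adult cTEC (6.95 CPM, 3.89 to 11.5, and 2.67 CPM, 1.28 to 4.91). Both adult values lay above all younger ones, although the lower bound of replicate 2 overlapped the interval of NB (0.734 to 1.65). The slope was 1.31 ± 0.23 (edgeR, adjusted p = 0.0253). It was 1.06 without adult cTEC replicate 1, 1.33 without replicate 2 and 1.32 in data set 1 alone, and it passed in none of these fits.

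Onset was read as the first stage at 50% or more of the mean of the 2 adult cTEC libraries. Calr and Pdia3 met this at E13.5 (135% and 64.9%), Tapbp and Erap1 at E15.5 (60% and 56.3%), Tap1 at E17.5 (51.7%) and Tap2 at NB (71.0%). H2-K1, H2-D1, B2m and Nlrc5 met it only in the adult, but H2-K1 and H2-D1 stood just below it at NB (49.7% and 49.9%), B2m was at 41.5% and Nlrc5 at 23.4%. Read against adult cTEC replicate 2 alone, H2-K1 and H2-D1 passed the threshold at NB, Tap1 at E15.5 and Erap1 at E17.5, and against replicate 1 alone Tap1 passed it at NB. At E13.5 the chaperones and the trimming enzyme were thus at 31.7% or more of the adult level, and the 7 other genes at 1.99% to 18.2%. By E15.5, 4 of the 10 genes had passed 50%, against 82.4% of the 14449 genes tested for the trend, since a gene that does not change passes at the first stage.

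**Figure D2:**
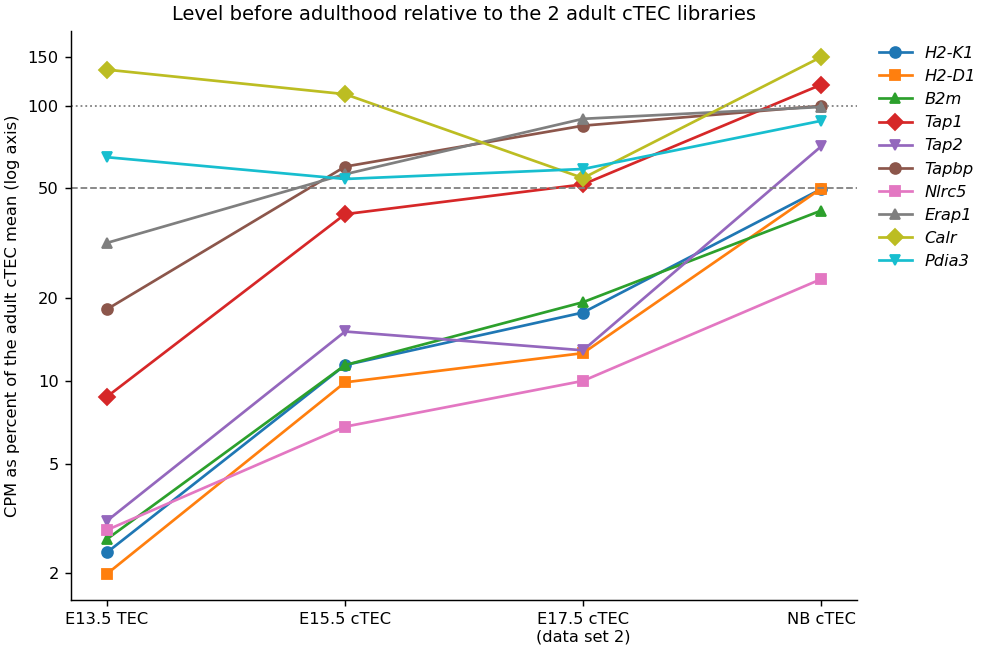
Level of each gene at E13.5, E15.5, E17.5 and NB as a percent of the mean CPM of the 2 adult cTEC libraries (log axis), with dashed and dotted lines at 50% and 100%. Calr and Pdia3 began above 50%, Tapbp and Erap1 crossed it at E15.5, Tap1 at E17.5 and Tap2 at NB, and H2-K1, H2-D1, B2m and Nlrc5 were still below it at NB.

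Shares of cells with a UMI followed the same courses. To remove differences in depth, each cell was thinned to 2000 UMIs, which left out between 0 and 121 shallower cells per library. B2m was then found in 19.4% of E13.5, 56.2% of E15.5, 75.0% of E17.5 and 92.6% of NB cells, and in 99.5% and 98.0% in adult cTEC, against 52.1% and 99.6% or more at E13.5 and in adult cTEC without thinning. H2-K1 was found in 8.26%, 31.9%, 47.1% and 80.0% of thinned cells from E13.5 to NB and in 95.1% and 90.3% in adult cTEC. H2-D1 was found in 8.36% at E13.5 and in 97.9% and 90.9% in adult cTEC. Tap1 went from 2.43% at E13.5 to 29.2% in NB, with 29.4% and 18.0% in adult cTEC, and Tap2 from 0.809% to 20.7%, with 34.1% and 21.4%. The Tap2 share of adult cTEC replicate 2 was thus close to that of NB. Calr was in 70.8% of thinned cells at E13.5 and in 65.4% and 52.5% in adult cTEC. In 7 of the 10 genes (H2-K1, H2-D1, B2m, Tap1, Tap2, Tapbp and Pdia3) the exact Clopper-Pearson intervals of both adult cTEC libraries, which cover counting error over the cells of a library only, lay above that of E13.5. The count depended on the random draw: in a second draw, added after the first had been seen and made over all genes, 9 of the 10 did, with Erap1 and Nlrc5 added, against 8.66% of the 14449 genes tested for the trend. Nlrc5 was in 0.0540% of thinned cells at E13.5 and 0.234% and 0.404% in adult cTEC, near the level of 1 UMI, from which no change is read. Nearly all nucleated cells are known to express class I genes, so no cell type was taken as lacking them, and no background share was measured.

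The H2-K1, H2-D1 and B2m transcripts together made up a median of 0.0134% of the UMIs of a cell at E13.5, with a 90th percentile of 0.0543%, and 689 of 1857 cells (37.1%) had none. The median was 0.0710% for E15.5, 0.133% for E17.5 and 0.362% for NB, with 202, 79 and 0 cells at 0. In adult cTEC the medians were 0.899% and 0.613%, and the 10th percentiles were 0.457% and 0.297%, above the 90th percentile at E15.5 (0.240%). The 90th percentiles at E17.5 (0.317%) and NB (0.810%) lay above the 10th percentile of replicate 2, and that of NB also above the 10th percentile of replicate 1. In adult mTEC the medians were 1.78% and 1.15%. The rise was therefore seen across the distribution of cells and not only in its upper end.

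**Figure D3:**
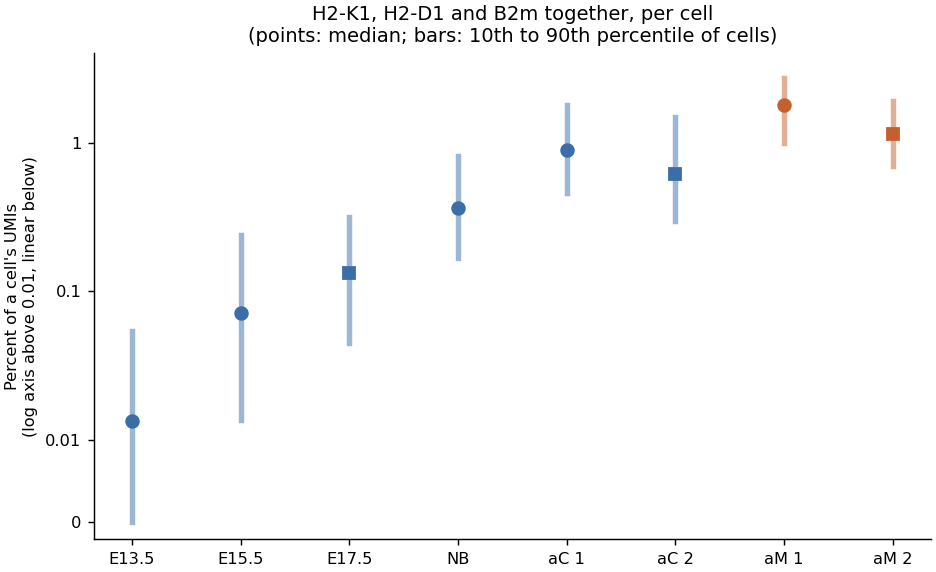
Percent of the UMIs of a cell that came from H2-K1, H2-D1 and B2m together in each of the 8 libraries (log axis above 0.01%, linear below), with the median as a point and the 10th to 90th percentile of cells as a bar; aC and aM stand for adult cTEC and adult mTEC, circles for data set 1 and squares for data set 2. The medians climbed from 0.0134% at E13.5 to 0.613% and 0.899% in adult cTEC, and were 1.15% and 1.78% in adult mTEC.

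At E13.5 the sort did not separate cortical from other TEC, and 1515 of the 1857 cells had a Psmb11 or Prss16 UMI. These cells had a Tap1 level of 14.3 CPM against 4.97 CPM in the 342 cells without such a UMI, a Tapbp level of 42.2 against 19.1 CPM, and an H2-K1 level of 52.5 against 32.3 CPM. Calr differed little between them, at 718 and 725 CPM. The 1857 cells included 113 cells of a cluster with Hhex, Nkx2-1 and Pax8 among its top genes. The part of that cluster in these differences was not tested. The adult cTEC libraries went the other way for the heavy chains. In adult cTEC replicate 2 the 108 cells without a cortical UMI had 3065 CPM of H2-K1, 3386 of H2-D1 and 7921 of B2m, against 1448, 1387 and 3494 CPM in the 400 cells with one, whereas Tap2 was at 92.9 against 149 CPM. In replicate 1 the contrast was smaller, with 2659 against 2345 CPM for H2-K1, 3582 against 2723 CPM for H2-D1, 6163 against 5657 CPM for B2m and 153 against 221 CPM for Tap2. The cells without a cortical UMI also held more medullary marker transcripts (4196 against 895 CPM in replicate 2, 8616 against 5252 CPM in replicate 1) and more mesenchymal ones (766 against 263 CPM and 976 against 351 CPM). Myeloid transcripts were at 147 against 15.4 CPM in replicate 2 and at 270 against 449 CPM in replicate 1. The cells without a cortical UMI were also shallower, with medians of 5335 against 7601.5 UMIs in replicate 2 and 2963 against 4638 UMIs in replicate 1. The part of these differences in the class I levels was not tested. Cells of 1 library are not replicates, and these are descriptions with no test.

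The adult lineages differed in a few of the genes and in both directions. Tap2 was higher in cTEC, at 203 and 140 CPM against 116 and 33.5 CPM in mTEC. Calr was lower in cTEC, at 622 and 444 CPM against 1222 and 1178 CPM, and so was Nlrc5, at 6.95 and 2.67 CPM against 15.2 and 10.2 CPM. The libraries of the lineages did not overlap for these 3 genes, nor for 5 of the other 7 (all but H2-D1 and Tapbp), which makes 8 of 10 against 67.9% of the 15586 genes tested. The fitted log2 difference, cTEC minus mTEC, over the 4 libraries with data set as a term was 1.37 ± 0.40 (SE, n = 4) for Tap2 (edgeR, adjusted p = 0.00278), -1.26 ± 0.42 for Calr (adjusted p = 0.0110) and -1.58 ± 0.52 for Nlrc5 (adjusted p = 0.0105). Of the 10 genes, 1 was thus higher and 2 were lower in cTEC. Over all 15586 genes tested, 33.5% passed, with 11.7% higher and 21.8% lower in cTEC, so that the share of the 10 genes that passed was near the background. The median difference was -0.40 for the 10 genes and -0.14 for all genes.

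**Figure D4:**
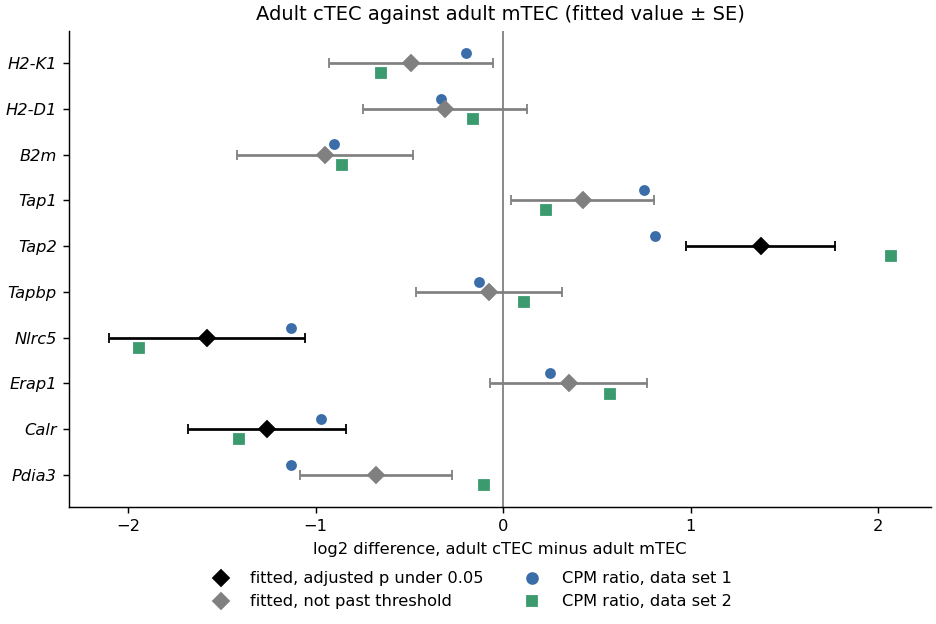
Difference in each gene between adult cTEC and adult mTEC on the log2 scale, as fitted in edgeR over 4 libraries (diamonds with SE, black where the adjusted p was under 0.05) and as the ratio of CPM within data set 1 (circles) and data set 2 (squares). Tap2 lay to the right, Calr and Nlrc5 to the left, and the Tap2 ratio was larger in data set 2 (2.07) than in data set 1 (0.81).

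The other 7 genes did not pass the test. B2m was at 5786 and 4168 CPM in cTEC and at 10811 and 7567 CPM in mTEC, without overlap, with log2 ratios of -0.90 and -0.86 within the data sets and a fitted difference of -0.95 ± 0.47 (edgeR, adjusted p = 0.106). DESeq2 called it (adjusted p = 0.00548), as did edgeR on the cTEC cells with a cortical UMI (adjusted p = 0.0487). H2-K1 was at 2786 and 2659 CPM in mTEC, above both cTEC libraries, with a difference of -0.49 ± 0.44 (edgeR, adjusted p = 0.420). H2-D1 was at 3696 and 1889 CPM in mTEC, a range that overlapped that of cTEC (edgeR, adjusted p = 0.640). Tap1 was at 108 and 92.7 CPM in mTEC, just below its lower cTEC library of 109 CPM (edgeR, adjusted p = 0.431). Tapbp was at 220 and 205 CPM in mTEC and 201 and 221 CPM in cTEC, with log2 ratios of -0.13 and 0.11 in the 2 data sets. Pdia3 was at 578 and 343 CPM in mTEC (edgeR, adjusted p = 0.198) and Erap1 at 17.1 and 19.5 CPM (edgeR, adjusted p = 0.574). This comparison and the trend with age share the adult cTEC libraries.

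The 3 calls depended on the fit. With the data set term dropped and all 4 libraries kept, Calr alone passed. Tap2 was then at 1.14 (1.37 with the term) and Nlrc5 at -1.54 (-1.58 with it). Leaving out 1 library at a time also meant dropping the term, and these changes cannot be told apart. In those fits Tap2 kept a positive difference of 0.49 to 2.15 but passed only without adult mTEC replicate 1 (edgeR, adjusted p = 0.0317), and Calr (-1.43 to -1.14) and Nlrc5 (-2.23 to -1.05) passed only without adult cTEC replicate 1 (edgeR, adjusted p = 0.0419 and 0.0491). With DESeq2 and the term kept, Nlrc5 did not pass at a difference of -1.61 (adjusted p = 0.208). Myeloid markers summed to 485 and 610 CPM in adult mTEC and to 404 and 35.5 CPM in adult cTEC, and the B cell markers Cd79a, Cd79b, Ms4a1 and Pax5 to 26.7 and 38.7 CPM (4 of 4 with UMIs) against 2.32 and 3.20 CPM (3 of 4, with Ms4a1 at 0). Thymocyte markers were at 39.7 and 39.0 CPM in mTEC, between the 2 cTEC libraries (50 and 15.8 CPM), and mesenchymal markers at 99.7 and 69.2 CPM against 510 and 340 CPM in cTEC. Without cells that had a thymocyte UMI the differences were 1.32 for Tap2, -1.21 for Calr and -1.53 for Nlrc5, and all 3 passed. The medullary list Ccl21a, Krt5, Krt14 and Itga6 summed to 8287 and 3971 CPM in mTEC and to 6108 and 1398 CPM in cTEC. By this list cTEC replicate 1 thus lay above mTEC replicate 2, whereas the cortical markers stood at 6037 and 9994 CPM in cTEC against 300 and 385 CPM in mTEC. The part of medullary, myeloid, B cell and mesenchymal transcripts was not tested, also for Nlrc5.

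Within adult mTEC the transporter and the chaperones were spread in opposite ways over the cells. Cells with 10 or more UMIs of Ccl21a, a chemokine of the less mature medullary cells, and no Aire UMI had 181 CPM of Tap1 and 204 CPM of Tap2 in replicate 1 (657 cells), and 134 and 57.2 CPM in replicate 2 (719 cells). Cells with a UMI of Aire, the regulator of self-antigen expression, had 72.6 and 73.4 CPM of Tap1 and Tap2 in replicate 1 (817 cells), and 87.9 and 29.9 CPM in replicate 2 (4199 cells). Calr went the other way, at 1498 and 1257 CPM in the Aire cells against 701 and 811 CPM in the Ccl21a cells. B2m differed less, at 9941 and 7455 CPM against 12635 and 7802 CPM. The Aire cells were deeper, with medians of 12443 and 13084 UMIs against 7340 and 8421, and these classes are ranges cut on marker UMIs and not cell types. Tap2 in the Ccl21a cells of replicate 1 was as high as in adult cTEC replicate 1 (203 CPM), but in replicate 2 it was below that of adult cTEC replicate 2 (140 CPM).

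**Figure D5:**
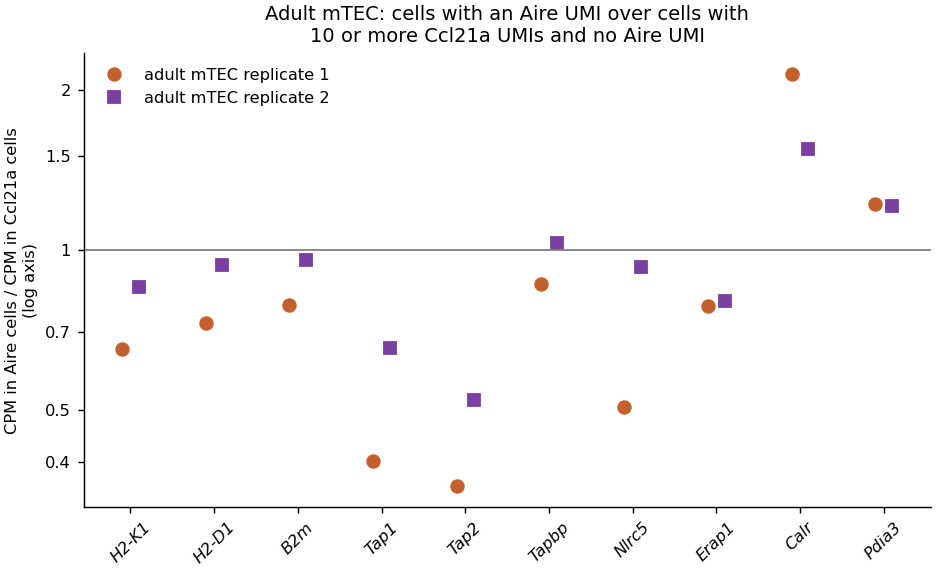
Ratio of the CPM in cells with an Aire UMI to that in cells with 10 or more Ccl21a UMIs and no Aire UMI (log axis) for the 10 genes in the 2 adult mTEC libraries (circles, replicate 1; squares, replicate 2). Tap1 (0.401 and 0.656) and Tap2 (0.360 and 0.523) lay furthest below 1, and Calr (2.14 and 1.55) and Pdia3 (1.22 and 1.21) lay above 1.

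The smaller mTEC classes, which had neither an Aire UMI nor 10 Ccl21a UMIs, also held these transcripts. Cells with UMIs of 2 or more keratinised markers had 11884 and 8698 CPM of B2m and 3644 and 3323 CPM of H2-K1 (25 and 178 cells). Cells with UMIs of 2 or more tuft cell markers had 9939 and 7177 CPM of B2m and 2766 and 3050 CPM of H2-K1 (15 and 116 cells). Tap1 was at 93.9 and 79.5 CPM in the first and at 55.5 and 88.8 CPM in the second, in each library below the Ccl21a cells.

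The other genes of the pathway were read from 4 lists. Over all genes tested, 4.75% rose and 2.88% fell with age. Of 18 non-classical and other class I heavy chain genes, 13 could be tested for the trend with age, and 10 rose and 0 fell, with a median slope of 1.08. The steepest were H2-Q6 (1.89 ± 0.20), which went from 0.276 CPM at E13.5 to 162 and 82.3 CPM in adult cTEC, H2-Q7 (1.58 ± 0.11), the gene of the Qa-2 molecule, H2-M2 (1.41 ± 0.17) and H2-T23 (1.34 ± 0.17), the gene of Qa-1. Of 12 peptide supply genes 2 rose and 0 fell. These were the immunoproteasome subunit Psmb8 (1.84 ± 0.17), from 2.90 CPM at E13.5 and 67.8 CPM in NB to 301 and 204 CPM in adult cTEC, and the proteasome activator Psme1 (0.75 ± 0.15). The median slope of that list was 0.11. Of 12 genes of folding and loading in the endoplasmic reticulum 0 passed, with a median of -0.01. Of 23 regulators of class I 3 rose and 0 fell, with a median of 0.16. They were Socs1 (1.25 ± 0.14), a feedback inhibitor of cytokine signalling, the interferon-responsive factor Irf1 (1.11 ± 0.11), which went from 38.2 CPM at E13.5 to 537 CPM in NB and 716 and 486 CPM in adult cTEC, and Stat2 (0.78 ± 0.11). Without adult cTEC replicate 1, 0 genes of the 4 lists passed, as for the 10 genes above, and the median slope of the heavy chain list was 0.86. Without replicate 2, 7 of 14 heavy chain genes and 2.02% of all genes rose.

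Between the adult lineages, where 11.7% of all genes tested were higher and 21.8% lower in cTEC, 15 of the heavy chain genes could be tested, and 2 were higher and 6 lower in cTEC, with a median difference of -0.60, which was the same with H2-M9 set to its bound. H2-Q4 (1.31 ± 0.39) and H2-T23 (1.22 ± 0.39) were higher, and H2-M2 (-1.89 ± 0.41) and H2-Q7 (-1.60 ± 0.42) were lower. H2-Q1 was also called lower, but its fitted value rests on 4 UMIs in adult cTEC replicate 1 and 0 in replicate 2. H2-M9 had 0 UMIs in both cTEC libraries and 170 in mTEC, which put it at least 3.99-fold lower in cTEC, with 3 counts taken as the floor over the cTEC group. In the peptide supply list 2 of 12 were higher and 3 lower, with a median of -0.15. Psmb9, the immunoproteasome gene next to Tap1, was higher at 571 and 689 CPM against 210 and 135 CPM (1.83 ± 0.42), as was Lnpep (1.20 ± 0.46), and the proteasome activator genes Psme1 (-1.72 ± 0.41), Psme2 (-1.65 ± 0.41) and Psme3 (-1.43 ± 0.40) were lower. In the folding list 0 of 12 were higher and 2 lower, with a median of -0.35. The 2 were Hsp90b1 (-1.19 ± 0.41) and Hspa5 (-1.07 ± 0.42), chaperones known to be expressed together with Calr, at 426 and 436 CPM and 494 and 569 CPM in cTEC against 990 and 888 CPM and 1161 and 966 CPM in mTEC. Of the 23 regulators, Irf1 (1.73 ± 0.41), Atf1 (1.57 ± 0.39) and Stat2 (1.03 ± 0.42) were higher, and Ifngr2 (-1.89 ± 0.40), a chain of the interferon gamma receptor, was lower, with a median of -0.01 over the list. These list counts depended on the fit. Without the data set term, 1 heavy chain gene was higher and 3 were lower (8.73% and 18.3% of all genes). In the same fit 0 folding genes were higher and 1 lower, 1 and 3 of the peptide supply list, and 2 and 1 of the regulators. The fits without 1 library also lack the term. In them the heavy chain median ran from -1.13 without adult cTEC replicate 1 to 0.21 without adult mTEC replicate 1, so that its sign turned. Fewer genes were called in them than with all libraries, in each of these lists as over all genes. The median in those fits ran from -0.503 to -0.398 for the folding list, from -0.435 to -0.226 for peptide supply and from 0.017 to 0.144 for the regulators.

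Outside these lists, the genes whose levels ran most like the mean of H2-K1, H2-D1, B2m, Tap1, Tap2, Tapbp and Nlrc5 over the 8 libraries were sought by Pearson correlation of log2(CPM + 10) among 4724 genes that reached 50 CPM in a library. The 10 highest were Rabac1 (r = 0.984), Zbp1, Usp18, Icam1, Cxcl10, Pde4b, Arpc1b, Irf7, Tmem176a and Slc3a2 (r = 0.965). Usp18 was at 0.760 CPM in E13.5, 109 in NB, 195 and 115 in adult cTEC, and 321 and 241 in adult mTEC. Cxcl10 was at 18.2 CPM in E13.5, 184 in E17.5 and 2103 in NB, and at 1623 and 1177 CPM in adult cTEC. The correlations are descriptions over 8 libraries that also share their stage and depth. Of the genes left out of the mean profile, Pdia3 correlated with it at 0.756, Erap1 at 0.732 and Calr at 0.323, and of those in it Nlrc5 had the lowest correlation (0.746), below that of Pdia3. Nlrc5 lay at 0.138 to 6.95 CPM along the cortical line, where the 10 CPM added before the log flatten its changes.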

How the data were processed

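Counts were analysed from 8 libraries of sorted TEC. Per the labels, Chromium v2 libraries were made, and the submitters' processing notes name Cell Ranger 2.0.1, STAR 2.5.1b, bcl2fastq 2.17 and mm10. The deposited matrices hold raw UMI counts per gene and called cell without normalization. Cell Ranger 3.0.1 stands in the headers of the data set 2 matrices, and the gene lists differ between the data sets (27998 and 31053 genes), so that the 27514 shared genes were used. The part of these differences in values of data set 2 was not tested.

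As in the study, cells with over 5% mitochondrial UMIs or over 5000 genes were left out (25750 of 28334 kept). Cells were clustered per data set (2000 variable genes, 20 components, leidenalg 0.10.2, resolution 0.8). Clusters were called thymocyte-like (254 cells) or parathyroid-like (131 cells) and left out when more than 50% and at least 3 markers of the list were 4-fold higher, and the rest were kept, also a cluster led by haemoglobin genes (550 cells). A cluster of 118 cells with Hhex, Nkx2-1 and Pax8 among its top genes, 113 of them from E13.5, did not meet this rule and was kept too. No doublet caller was run. UMIs were summed per library, and slopes and differences were fitted with edgeR 4.0.16 (R 4.3.3; filterByExpr, TMM, quasi-likelihood test, threshold 0.05), with DESeq2 1.42.0 as an alternative. SE is the estimate divided by the root of F. In simulated counts, 200 of 200 genes with a log2 slope of 1 were recovered over 14449 genes, and 183 of 200 with a log2 difference of 2 over 15586 genes, with 3.85% and 5.18% false calls. The changed genes were picked above a log2 CPM of 5, and the counts were drawn with the dispersion of the fits themselves. These shares therefore do not cover low genes such as Nlrc5 and Erap1, nor smaller changes. The members, the lists and the tests were chosen with earlier results of these data known. All members were named, from each list at most 4 genes per direction past the threshold by size of change, and the 10 genes of the most similar course. One gene each of the medullary and B cell marker lists is not reported here and was left out of the sums.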

Additional observations from a re-analysis of the deposited data

How the results depend on the processing

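Each alternative changed 1 choice, except that data set 1 alone and the lineage fits without 1 library also lost the data set term, and that DESeq2 also used its own scaling. For the trend with age, the number of the 10 genes called was 8 with DESeq2 (2870 genes in all) and 4 with data set 1 alone (438 genes in all). It ranged from 0 to 4 without 1 adult cTEC library, with 16 to 463 genes in all. It stayed at 5, against 5.47% to 8.71% of all genes, with another scaling, no filter, no data set term, all deposited cells, all clusters, or without thymocyte-UMI cells, the haemoglobin cluster or E13.5, and was 6 with only cells that had a cortical UMI (1325 genes in all). For the adult lineages, DESeq2 called 3 of the 10 and 2477 genes in all, and without the data set term 1 of the 10 and 4208 genes in all passed. Leaving out 1 library gave 0 to 2 of the 10 and 1398 to 2848 genes in all, in fits without the data set term, since no residual degree of freedom was left with it, and with the lone library of a lineage assumed to vary like the other lineage. Signs turned only in genes that had not passed: the Calr slope was -0.02 without the data set term, and over the fits without 1 library the adult difference ran from -0.76 to 0.08 for H2-D1, positive without adult mTEC replicate 1, from -0.27 to 0.07 for Tapbp, positive without adult cTEC replicate 1, and from -0.04 to 0.66 for Erap1, negative without adult cTEC replicate 2. Of the 250 values of single genes under alternatives, 221 kept direction and side of the threshold. The count of genes with onset by E15.5 was 4 (82.4% of all genes), and 5 at 25% of the adult level (90.2%). The count by shares of cells was 7 at 1000 UMIs and unthinned (8.93% of all genes), where Nlrc5 took the place of Pdia3, and in a second draw 9 at 2000 (8.66%) and 6 at 1000 UMIs (6.52%). Where a call was lost the cause was not tested, apart from the smaller number of libraries. Nlrc5 had at most 43 UMIs in a library of the cortical line, which limits its values. The replicate numbers follow accession order and pair nothing, but each data set holds 1 adult library of each lineage, so that the fit with the data set term compares them in pairs and the fit without it is the unpaired one. Without E13.5 the slopes of Tap1 (0.45), Tapbp (0.19) and Erap1 (0.19) were over 1.5 times smaller.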

Other observations

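The thymocyte-like and parathyroid-like clusters, which were left out except where all clusters or all deposited cells were used, also held class I transcripts. The 169 thymocyte-like cells of the NB library had 1075 CPM of H2-K1, 1248 CPM of H2-D1 and 2096 CPM of B2m, beside 1025, 1155 and 2066 CPM in the kept cells of that library. The 35 thymocyte-like cells of the E17.5 library had 294, 208 and 731 CPM, beside 364, 292 and 960 CPM. In the adult cTEC libraries the thymocyte-like cells were lower than the kept cells. The 14 such cells of replicate 1 had 1029 CPM of H2-K1 and 2459 CPM of B2m, beside 2425 and 5786 CPM, and the 27 of replicate 2 had 926 and 2221 CPM, beside 1694 and 4168 CPM. The 124 parathyroid-like cells of the E13.5 library had 27.4 CPM of H2-K1, 12 CPM of H2-D1 and 53.1 CPM of B2m, below the 49.1, 46.1 and 132 CPM of the kept cells, whereas Calr was at 715 and 719 CPM. The 7 such cells of the E15.5 library had 384 CPM of H2-K1 (231 to 599), above the 235 CPM of the kept cells. Their H2-D1 (121 CPM) and B2m (80.7 CPM) lay below the 229 and 566 CPM of the kept cells. These are values of 1 library each.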
